A study of Mus musculus with 12 samples.

Results

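The semaphorins are a family of secreted and membrane-bound guidance proteins, the plexins are their main receptors, and the neuropilins are co-receptors of plexins. They were read here across a peripheral sensory ganglion and the brainstem nucleus that it feeds. The members were all genes of the protein-coding table with a mouse symbol of the form Sema3 to Sema7 with a letter from a to g, Plxn with a letter from a to d and a number, or Nrp1 and Nrp2. This gave 31 genes of 21981, made up of 20 semaphorins, 9 plexins and 2 neuropilins, with 102 of the table's 57109 transcripts. The FPKM (fragments scaled to transcript length and library size) of a gene's transcripts were summed. The 31 genes were taken by a rule on names, which was set with earlier results of these data known.

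The series concerns lasting inflammatory pain of the jaw joint in mice. Total RNA was sequenced from trigeminal ganglia (TG), home to the cell bodies of facial sensory neurons, and from the spinal trigeminal nucleus caudalis (Sp5C), where the pain and temperature fibres of these neurons end. All animals were wild-type C57BL/6 mice of 8 weeks, and there were 4 groups of 3 libraries, STG and CTG from the ganglion and SSp5C and CSp5C from the brainstem nucleus. The letters S and C are not spelled out in the labels and are kept unexpanded, with each contrast given as C minus S. No agent is named in the labels, nor whether a group's libraries came from separate or unpooled animals, and p-values therefore reflect the scatter of these 12 samples, part or all of which may be technical.

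Semaphorins of class 3 are secreted, those of classes 4 to 6 span the membrane and Sema7a is held on the cell surface by a lipid anchor. They bind plexins, which act inside the cell on small GTPases and so change the cytoskeleton of growing axons, of endothelium and of immune cells. Most class 3 semaphorins need a neuropilin to bind a plexin, and neuropilins also bind vascular endothelial growth factors. In sensory ganglia the family is best known for the collapse of growth cones by Sema3a through Nrp1, and in the central nervous system for signals from oligodendrocytes such as Sema4d.

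The libraries correlated at r = 0.988 to 0.995 within a group and at r = 0.908 to 0.926 between tissues on the log2(FPKM + 1) scale. The labelled tissues held their defining markers. A list of 6 sensory neuron genes had a mean log2(FPKM + 1) level of 6.72 to 6.91 in the TG libraries and 0.91 to 1.71 in Sp5C, and 6 genes of central inhibitory and other neurons had 0.23 to 0.43 in TG and 5.81 to 6.03 in Sp5C. Single TG libraries also carried markers of neighbouring tissue. The mean level of 7 pituitary genes was 5.99 in STG replicate 1 and 0.32 to 1.63 in the other TG libraries, and that of 8 neutrophil and bone marrow genes was 5.71 in CTG replicate 1 and 4 in CTG replicate 3 against 0.44 to 1.45 in the others. FPKM values carry no read numbers, so the depth behind each value is unknown.

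The ganglion and the brainstem nucleus differed in 28 of the 31 members. At an adjusted p under 0.05 (limma, Benjamini-Hochberg over 13081 genes), 16 of the 31 members were higher in TG, where 36.2% of all genes tested were higher, and 12 were lower, where 35.0% of all genes were. The remaining 3, Plxnb2, Plxnb3 and Sema5b, did not pass. By log2 differences of 1 or more, 10 members were higher in TG (background 9.82%) and 5 were lower (background 9.04%). The median size of the difference was 0.93 for the members and 0.35 for all genes, and the signed medians were 0.28 and 0.01. Of the 20 semaphorins, 9 were higher in TG and 10 lower, with a median difference of -0.12. Of the 11 plexins and neuropilins, 7 were higher and 2 lower, with a median of 0.33. The 6 libraries of one tissue did not overlap the 6 of the other for 15 members higher and 9 lower in TG (background 53.7% in either direction). Marker lists of Schwann cells (7.25 to 7.53 in TG and 1.49 to 1.95 in Sp5C, mean log2(FPKM + 1)) and of fibroblasts and meninges (5.39 to 6.09 and 1.83 to 2.98) parted the tissues too, and their part in the members' differences was not tested. In bulk tissue, fewer cells of a type and less RNA per cell cannot be told apart.

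**Figure D1:**
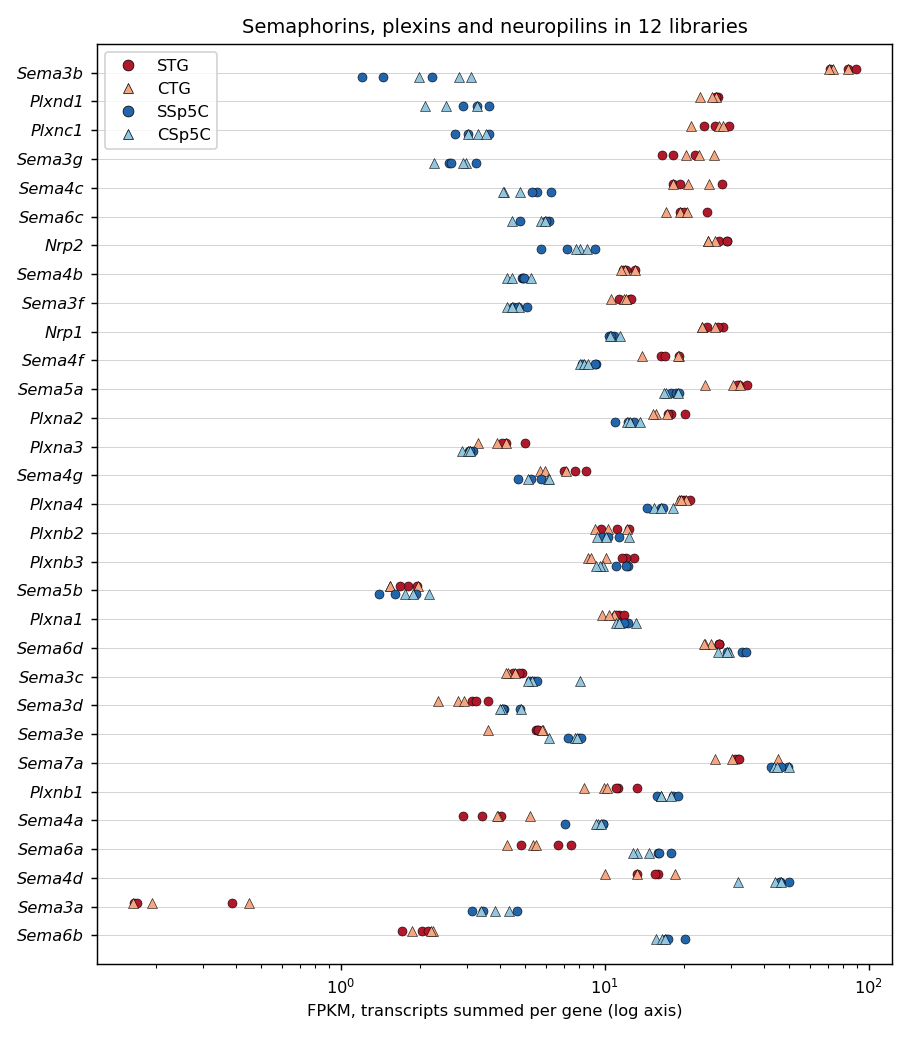
FPKM of the 31 members (rows, ordered by the difference between tissues) in each of the 12 libraries on a log axis, with 1 point per library. Sema3b lies between 70.9 and 89.8 FPKM in TG and between 1.2 and 3.11 in Sp5C, and the order turns over to Sema6b, which lies between 1.71 and 2.23 in TG and between 15.6 and 20.2 in Sp5C.

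The summed FPKM of the family was 487 to 539 per library in TG and 338 to 362 in Sp5C. In TG the highest 5 members were Sema3b, Sema7a, Sema5a, Nrp2 and Plxnc1, at means of 78.8, 32.9, 31.0, 26.8 and 26.0 FPKM. Sema3b stood clear of the next member there, and from Sema7a down to Plxnc1 each range overlapped that of its neighbour. In Sp5C the highest 5 were Sema7a at 46.3, Sema4d at 44.2, Sema6d at 30.3, Sema5a at 18.1 and Sema6b at 17.3 FPKM. Neighbours in that order overlapped in Sp5C except Sema6d and Sema5a. Sema3b, first of the 31 in TG, was 30th in Sp5C, and Sema6b, 5th in Sp5C, was 29th in TG.

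The windows around the RefSeq starts (assembly GRCm38.p6, 250 bases before to 50 bases after the start) are shown for the 5 members whose level differed by 7.58-fold or more between tissues and for which a window was given: Sema3g, Plxnc1 and Plxnd1, higher in TG, and Sema6b and Sema3a, higher in Sp5C. They lie at chr14:31217623-31217922 (plus strand), chr10:94944796-94945095 (minus strand), chr6:115994956-115995255 (minus strand), chr17:56140294-56140593 (minus strand) and chr5:13396534-13396833 (plus strand). Each is written 5′ to 3′ along its gene, and capitals mark GGGCGG, the GC box bound by Sp-type factors, or its reverse complement CCGCCC.
Sema3g: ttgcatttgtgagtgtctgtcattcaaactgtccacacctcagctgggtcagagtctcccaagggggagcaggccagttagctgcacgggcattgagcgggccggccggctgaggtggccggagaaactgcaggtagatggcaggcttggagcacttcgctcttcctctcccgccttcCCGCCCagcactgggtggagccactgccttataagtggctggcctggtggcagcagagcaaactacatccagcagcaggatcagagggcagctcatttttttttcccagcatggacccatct
Plxnc1: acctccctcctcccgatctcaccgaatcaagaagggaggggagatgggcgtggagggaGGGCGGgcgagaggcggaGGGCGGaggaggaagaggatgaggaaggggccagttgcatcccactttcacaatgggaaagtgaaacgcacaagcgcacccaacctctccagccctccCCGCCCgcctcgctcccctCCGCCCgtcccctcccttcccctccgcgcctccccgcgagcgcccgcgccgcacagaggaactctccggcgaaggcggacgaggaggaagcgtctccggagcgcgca
Plxnd1: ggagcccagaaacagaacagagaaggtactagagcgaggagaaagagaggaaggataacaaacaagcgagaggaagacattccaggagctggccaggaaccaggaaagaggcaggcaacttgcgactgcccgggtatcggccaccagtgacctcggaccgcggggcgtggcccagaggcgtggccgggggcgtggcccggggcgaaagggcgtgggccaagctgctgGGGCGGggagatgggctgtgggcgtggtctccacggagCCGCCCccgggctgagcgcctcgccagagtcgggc
Sema6b: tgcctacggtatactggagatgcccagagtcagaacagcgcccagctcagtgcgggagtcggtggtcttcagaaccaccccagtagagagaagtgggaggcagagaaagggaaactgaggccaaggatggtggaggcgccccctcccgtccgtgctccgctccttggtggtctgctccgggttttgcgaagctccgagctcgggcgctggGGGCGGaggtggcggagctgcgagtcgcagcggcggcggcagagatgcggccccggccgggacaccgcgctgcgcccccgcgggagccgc
Sema3a: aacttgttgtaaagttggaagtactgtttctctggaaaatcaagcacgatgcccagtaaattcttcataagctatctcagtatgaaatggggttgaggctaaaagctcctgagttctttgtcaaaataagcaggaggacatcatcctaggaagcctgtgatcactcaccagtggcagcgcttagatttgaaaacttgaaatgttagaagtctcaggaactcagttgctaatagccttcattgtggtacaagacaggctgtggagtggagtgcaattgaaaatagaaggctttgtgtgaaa
GC boxes numbered 1 in the Sema3g window, 4 in that of Plxnc1, 2 in that of Plxnd1 and 1 in that of Sema6b, and the Sema3a window held none. The Sema3a window lies at an annotated start whose transcript was listed at 0 in all 12 libraries, and its level came from starts further along the gene.

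RefSeq windows were matched by symbol for 26 of the 31 members, 37 windows in all, and some genes have several. Of the 37, 33 have their start within 300 bases of an annotated start of a deposited transcript. The Sema4d windows and a Plxnb2 window do not. The Sema3c window, like that of Sema3a, lies by a start listed at 0 in all 12 libraries. GGGCGG, on either strand, was in 27 of these 37 windows (73.0%) and in 35.7% of all 32851 windows of the same length. CG dinucleotides had a median of 15 per window in the family, from 2 to 42, and 7 over all windows. The CCAAT box was in 18.9% of member windows and 37.4% of all, and ACAAAG, one form of the core read by SOX factors, was in 21.6% and 18.7%. TATAAA was in none of the member windows and in 13.6% of all, and TGACGTCA, the full cyclic AMP response element, was in none and in 1.8%. Both strands were searched for each, and none of these motifs contains another. These are counts of letters in windows that share genes, and no test was made on them.

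Class 3 semaphorins, the secreted ligands, were split between the tissues, with 3 of 7 higher in TG and 4 lower. Sema3b, a ligand of neuropilin and plexin complexes, was at 83.8, 89.8 and 71.6 FPKM in STG, 83.2, 73.6 and 70.9 in CTG, 1.2, 2.22 and 1.44 in SSp5C and 2.8, 3.11 and 1.97 in CSp5C. All TG libraries lay far above all Sp5C libraries, with a mean of 78.8 ± 7.85 (SD, n = 6) against 2.13 ± 0.747 FPKM (n = 6), a 37.1-fold ratio and a log2 difference of 4.70 ± 0.11 (SE, adjusted p = 1.81e-11). Sema3g, a ligand of Nrp2 known from arteries, was at 16.5, 21.9 and 18.2 FPKM in STG, 20.3, 22.8 and 25.9 in CTG, 2.56, 3.25 and 2.62 in SSp5C and 2.98, 2.26 and 2.91 in CSp5C. Its groups did not overlap between tissues, with a log2 difference of 2.53 ± 0.089 (SE, adjusted p = 3.54e-10), a 7.58-fold ratio of means. Sema3f, the main repellent ligand of Nrp2, had a log2 difference of 1.19 ± 0.049 (SE, adjusted p = 1.37e-09), with 10.6 to 12.6 FPKM in TG and 4.27 to 5.07 in Sp5C.

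The ligand of Nrp1 that collapses sensory growth cones went the other way. Sema3a was at 0.165, 0.169 and 0.386 FPKM in STG, 0.447, 0.163 and 0.192 in CTG, 3.14, 4.64 and 3.47 in SSp5C and 3.85, 3.41 and 4.33 in CSp5C. The highest TG library, at 0.447 FPKM, was far below the lowest Sp5C library, at 3.14, with a log2 difference of -1.94 ± 0.099 (SE, adjusted p = 8.55e-09) and a ratio of means of 15 in favour of Sp5C. A pseudocount of 1 holds such a low gene down, and with 0.1 in its place the difference was -3.52. Sema3d, Sema3e and Sema3c were lower in TG by smaller steps, at log2 differences of -0.42, -0.44 and -0.28 (adjusted p = 0.000145, 0.00193 and 0.0148). Sema3e, which binds Plxnd1 without a neuropilin, was at 3.61 to 5.82 FPKM in TG and 6.15 to 8.13 in Sp5C, so that its tissues did not overlap. Its difference did not pass when only the C libraries were compared (-0.46, adjusted p = 0.063).

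Class 4 semaphorins, which span the membrane, showed 4 of 6 members higher in TG and 2 lower. Sema4c, a ligand of Plxnb2, was at 27.8, 18.2 and 19.3 FPKM in STG, 18.1, 24.9 and 20.7 in CTG, 6.27, 5.54 and 5.32 in SSp5C and 4.77, 4.15 and 4.1 in CSp5C. Every TG library lay above every Sp5C library, with a log2 difference of 1.89 ± 0.11 (SE, adjusted p = 2.04e-08) and a 4.28-fold ratio of means. Sema4b was at 11.5 to 13.0 FPKM in TG and 4.27 to 5.25 in Sp5C, a log2 difference of 1.19 ± 0.052 (SE, adjusted p = 2.27e-09). Sema4f (0.93, adjusted p = 7.47e-07) and Sema4g (0.29, adjusted p = 0.00356) were higher in TG by less, and the libraries of Sema4g overlapped between tissues.

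Sema4d, the ligand of Plxnb1 and a product of oligodendrocytes, was at 15.9, 15.5 and 13.3 FPKM in STG, 18.4, 13.2 and 10 in CTG, 50, 46 and 46.3 in SSp5C and 44.1, 46.7 and 31.9 in CSp5C. The Sp5C libraries all lay above the TG libraries, with CSp5C replicate 3 below the other 5 of its tissue, and the test gave a log2 difference of -1.56 ± 0.13 (SE, adjusted p = 1.09e-06). The larger part of its Sp5C level came from a transcript that GENCODE M21 marks as incomplete (24.7 ± 4.45 against 4.20 ± 1.12 FPKM in TG). Over complete transcripts alone, a setting added after seeing the data, the difference was -0.88 (adjusted p = 1.92e-05). The mean level of 6 oligodendrocyte genes was 4.18 to 5.19 on the log2(FPKM + 1) scale in TG and 7.43 to 8.01 in Sp5C, and its part in this result was not tested. Sema4a, known mainly from immune cells and retina, was at 2.91 to 5.19 FPKM in TG and 7.06 to 9.89 in Sp5C, with a log2 difference of -1.06 ± 0.097 (SE, adjusted p = 1.38e-06). Its most abundant transcript alone gave -2.14.

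Among the other membrane-bound ligands, Sema5a and Sema6c were higher in TG and Sema6a, Sema6b, Sema6d and Sema7a lower. Sema6b, a ligand of Plxna4, was at 2.03, 1.71 and 2.13 FPKM in STG, 2.23, 2.19 and 1.86 in CTG, 20.2, 17.1 and 17.4 in SSp5C and 15.6, 16.5 and 16.9 in CSp5C. No TG library came near the Sp5C libraries, with a log2 difference of -2.59 ± 0.06 (SE, adjusted p = 1.37e-11) and a ratio of means of 8.53 in favour of Sp5C. Sema6c was at 19.3, 24.5 and 19.9 FPKM in STG, 19.3, 20.5 and 17.1 in CTG, 6.15, 4.79 and 5.98 in SSp5C and 5.71, 4.47 and 5.93 in CSp5C. All 6 TG libraries were above all Sp5C libraries, with a log2 difference of 1.70 ± 0.088 (SE, adjusted p = 9.19e-09). Sema6a, a ligand of Plxna2 and Plxna4 that is also made by oligodendrocytes, was at 4.26 to 7.48 FPKM in TG and 12.8 to 17.9 in Sp5C, with a log2 difference of -1.28 ± 0.092 (SE, adjusted p = 1.65e-07).

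Sema5a, which carries thrombospondin repeats and binds Plxnb3, was the third highest member in TG, at 24.0 to 34.7 FPKM against 16.7 to 19.2 in Sp5C, with a log2 difference of 0.74 ± 0.069 (SE, adjusted p = 1.64e-06). Its relative Sema5b was low in both tissues, 1.53 to 1.96 and 1.40 to 2.16 FPKM, and did not pass (-0.02, adjusted p = 0.791). Sema6d, a ligand of Plxna1, was high in both, and its difference of -0.23 (adjusted p = 0.000876) was small, with overlapping libraries. With the most abundant transcript alone it was -0.15 and did not pass (adjusted p = 0.166). Sema7a, a ligand of Plxnc1 and of integrin beta 1, was at 32, 31.2 and 32.3 FPKM in STG, 26.2, 30.3 and 45.3 in CTG, 49.5, 42.8 and 46.6 in SSp5C and 43.9, 45.1 and 49.9 in CSp5C. CTG replicate 3 lay within the Sp5C range and the other 5 TG libraries below it. The difference was -0.50 ± 0.11 (SE, adjusted p = 0.0016), and it did not pass when only the C libraries were compared (-0.47, adjusted p = 0.0761).

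**Figure D2:**
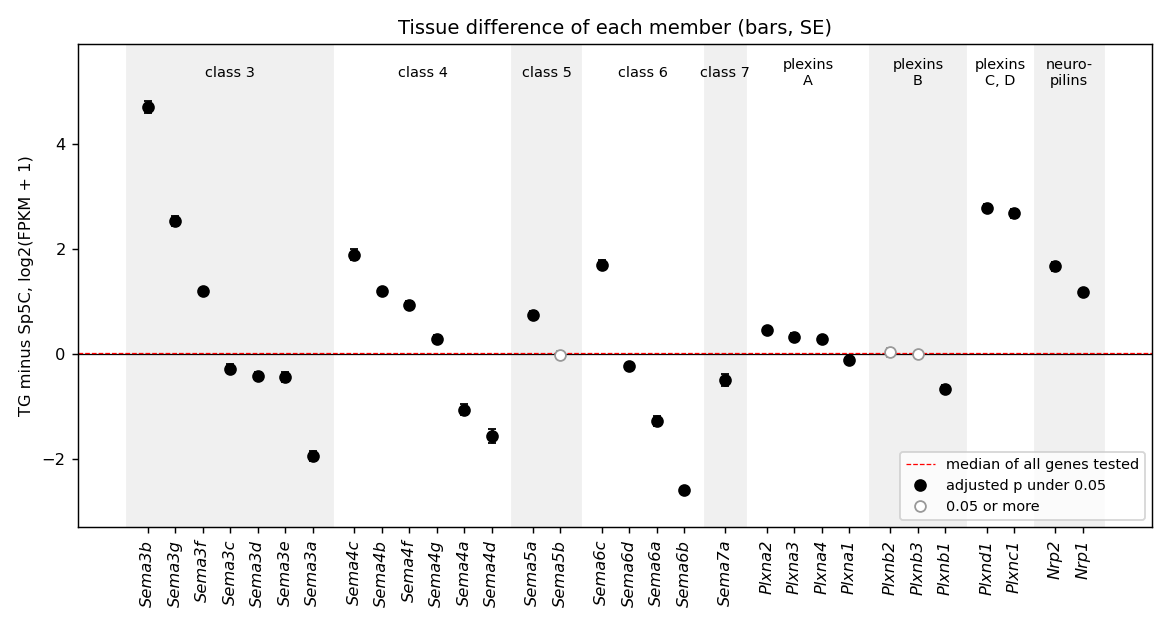
Log2(FPKM + 1) difference between TG and Sp5C for each member, by class, as the fitted value with its standard error (filled, adjusted p under 0.05; open, 0.05 or more). Plexins C and D and both neuropilins lie above 1, plexins A and B lie between -0.66 and 0.45, and classes 3, 4 and 6 of the semaphorins hold members on both sides of 0; the dashed line is the median of all genes at 0.01.

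Both neuropilins were higher in the ganglion. Nrp2, co-receptor of Sema3f, was at 27.1, 29.1 and 29 FPKM in STG, 24.6, 26.1 and 24.7 in CTG, 5.73, 9.19 and 7.21 in SSp5C and 8.06, 7.77 and 8.58 in CSp5C. The lowest TG library was above the highest Sp5C library by more than the spread within either tissue, with a log2 difference of 1.67 ± 0.083 (SE, adjusted p = 6.13e-09) and a 3.45-fold ratio of means. Nrp1, co-receptor of Sema3a, was at 23.4 to 28.0 FPKM in TG and 10.4 to 11.4 in Sp5C, with a log2 difference of 1.17 ± 0.046 (SE, adjusted p = 8.67e-10). Set beside the ligands named for each above, Nrp1 was the higher in TG and Sema3a the higher in Sp5C, whereas Nrp2, Sema3f and Sema3g were all higher in TG. The other class 3 members, not assigned here to either neuropilin, went both ways. Sema3b was higher in TG (4.70), and Sema3c (-0.28), Sema3d (-0.42) and Sema3e (-0.44) were lower.

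The plexins of types C and D, each the only one of its type, showed the largest receptor differences. Plxnd1, receptor of Sema3e and known from endothelium, was at 26.5, 26.9 and 26.4 FPKM in STG, 26.4, 25.6 and 23 in CTG, 2.91, 3.65 and 3.29 in SSp5C and 3.27, 2.5 and 2.09 in CSp5C. TG libraries stood well above Sp5C libraries without overlap, with a log2 difference of 2.77 ± 0.077 (SE, adjusted p = 5.3e-11), an 8.73-fold ratio. The endothelial marker list was at 2.58 to 3.01 on the log2(FPKM + 1) scale in TG and 2.84 to 3.13 in Sp5C. Its genes went both ways, with Cldn5 at 14.7 FPKM in TG and 21.6 in Sp5C and Cdh5 at 8.18 and 6.54. The part of the list in this difference was not tested. Plxnc1, receptor of Sema7a, was at 29.7, 26.1 and 23.7 FPKM in STG, 21.3, 27 and 28 in CTG, 2.7, 3.63 and 3.03 in SSp5C and 3.04, 3.31 and 3.54 in CSp5C. It too separated the tissues completely, with a log2 difference of 2.68 ± 0.084 (SE, adjusted p = 1.39e-10), an 8.09-fold ratio. Its ligand Sema7a was high in both tissues, at 32.9 ± 6.47 and 46.3 ± 2.94 FPKM.

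Plexins A, which pair with neuropilins or bind class 6 semaphorins directly, differed little. Plxna2 (0.45, adjusted p = 1.96e-05), Plxna3 (0.33, adjusted p = 0.000516) and Plxna4 (0.28, adjusted p = 0.000302) were higher in TG and did not overlap between tissues. Plxna1 was slightly lower (-0.12, adjusted p = 0.0397) and overlapped. Plexins B bind class 4 and 5 semaphorins, and Plxnb1, the receptor of Sema4d, was lower in TG at 8.33 to 13.2 FPKM against 15.8 to 18.9, with a log2 difference of -0.66 ± 0.067 (SE, adjusted p = 3.83e-06). Plxnb2 was at 10.8 ± 1.3 FPKM in TG and 10.5 ± 1.14 in Sp5C, a difference of 0.03 ± 0.087 (SE) that did not pass (adjusted p = 0.755). Plxnb3 was at 10.7 ± 1.74 and 10.7 ± 1.26 FPKM, a difference of 0.00 ± 0.048 (adjusted p = 0.951).

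Of 11 members with 2 or more starts that could be tested, 9 were called for a difference in start usage between tissues on the log2(FPKM + 1) scale. Of 102 member transcripts, 9 were listed at 0 throughout and 56 had a mean FPKM of at least 1. Among the 56, 28 were higher in TG (background 26.6% of all transcripts tested) and 16 lower (background 27.0%). In the test of usage, which sets each transcript against the others of its gene, 20 of 36 transcripts in 10 of 11 members differed (background 24.3% of transcripts and 32.8% of genes). A test on the ratio of each transcript to the rest, added after seeing the data, called 19 in 9 members (background 18.9% and 25.8%). With transcripts joined where their annotated starts lay within 300 bases, 17 of 25 starts in 9 of 11 members were called (background 32.4% and 37.6%). By the ratio, 16 in 8 members were (background 25.3% and 30.3%). In a gene with 2 tested starts or transcripts, both share 1 test with opposite signs. Members and background alike count such a test 2 times. The grouping by start was also added after seeing the data. With a pseudocount of 1, a difference in a gene's level alone can shift these values, so a call need not mean a different division. The third start of Sema3f was called by the ratio (-0.47, adjusted p = 0.018) at mean shares of 14.1% in TG and 14.6% in Sp5C.

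Sema4c had the largest change of usage among the member starts tested. Both starts lead to a protein of 834 residues in the transcripts annotated as complete. The upstream start, annotated at bases 36558250 to 36558349 of chromosome 1 on the minus strand (GENCODE M21, GRCm38), gave 9.10 ± 1.58 FPKM in the 6 TG libraries and 4.55 ± 0.84 in the 6 of Sp5C (mean ± SD). Its downstream start, 693 bases further along the gene, gave 18.9, 9.90 and 10.7 FPKM in STG, 10.3, 12.7 and 11.9 in CTG, 0.705, 0.791 and 0.0842 in SSp5C and 0.283, 0.201 and 0.825 in CSp5C. The downstream start was thus high in every TG library and under 1 FPKM in every Sp5C library. It held 57.2% of the gene's FPKM in TG (50.9% to 68.1%) and 9.66% in Sp5C (1.58% to 20.1%), a log2 change of usage of 2.31 (diffSplice adjusted p = 1.34e-07, ratio test adjusted p = 4.58e-05). The most abundant Sema4c transcript over all libraries comes from the upstream start, and on it alone the tissue difference was 0.69 in place of 1.89.

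Sema6c used its second start, 3801 bases downstream of the first, for 73.6% of its FPKM in TG and 65.8% in Sp5C (ratio test adjusted p = 0.01). Per library the share was 70.3% to 76.5% in TG and 61.3% to 75.7% in Sp5C, so the tissues overlapped. The first start was at 5.28 ± 0.536 FPKM in TG and 1.88 ± 0.393 in Sp5C. The larger part of this came from a transcript marked as incomplete (3.08 ± 0.612 and 0.95 ± 0.394 FPKM). Shares over complete transcripts alone were not computed. From that start, a transcript encoding 963 residues was at 5.72 ± 2.02 FPKM in TG and 0.278 ± 0.155 in Sp5C, and one encoding 931 residues was at 9.08 ± 0.797 and 3.33 ± 0.555. This 963-residue transcript was above every Sp5C library in all 6 TG libraries, the lowest of which was 2.44. The first start also gave transcripts of 963 residues (1.1 ± 0.421 FPKM in TG and 0.404 ± 0.277 in Sp5C) and 931 residues (1.11 ± 0.269 and 0.524 ± 0.266). Promoter windows of both starts of Sema4c and Sema6c are shown as examples of starts called for different usage. Sema4b and Sema4a also have windows for both starts, which are not printed. Those of Sema4c lie at chr1:36558332-36558631 and chr1:36557508-36557807 (minus strand), and those of Sema6c at chr3:95160170-95160469 and chr3:95164089-95164388 (plus strand), with GGGCGG or CCGCCC in capitals.
Sema4c upstream start: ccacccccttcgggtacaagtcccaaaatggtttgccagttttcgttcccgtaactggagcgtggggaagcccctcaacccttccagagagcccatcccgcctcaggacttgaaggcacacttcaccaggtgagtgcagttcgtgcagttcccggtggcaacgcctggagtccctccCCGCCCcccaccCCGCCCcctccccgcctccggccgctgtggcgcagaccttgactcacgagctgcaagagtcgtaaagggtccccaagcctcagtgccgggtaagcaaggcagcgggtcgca
Sema4c downstream start: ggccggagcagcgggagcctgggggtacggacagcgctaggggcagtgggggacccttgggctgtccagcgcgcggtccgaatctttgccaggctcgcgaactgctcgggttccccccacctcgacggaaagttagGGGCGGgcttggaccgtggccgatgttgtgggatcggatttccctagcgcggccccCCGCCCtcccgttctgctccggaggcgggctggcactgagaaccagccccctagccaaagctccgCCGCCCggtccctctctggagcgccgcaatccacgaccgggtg
Sema6c first start: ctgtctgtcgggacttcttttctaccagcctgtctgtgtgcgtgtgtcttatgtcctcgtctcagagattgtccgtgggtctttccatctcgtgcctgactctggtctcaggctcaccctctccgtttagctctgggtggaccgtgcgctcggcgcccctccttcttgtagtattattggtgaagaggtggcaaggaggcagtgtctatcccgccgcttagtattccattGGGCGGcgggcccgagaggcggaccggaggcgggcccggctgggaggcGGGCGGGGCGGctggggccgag
Sema6c second start: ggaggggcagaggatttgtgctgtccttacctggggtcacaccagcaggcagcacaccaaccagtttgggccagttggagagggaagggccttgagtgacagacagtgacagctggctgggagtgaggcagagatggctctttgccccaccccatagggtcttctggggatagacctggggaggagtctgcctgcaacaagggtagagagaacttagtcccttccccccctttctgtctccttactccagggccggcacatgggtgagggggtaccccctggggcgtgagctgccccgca
Of the Sema4c windows, the upstream one held 19 CG dinucleotides and 2 GC boxes and the downstream one 30 and 3. For Sema6c the first held 23 CG dinucleotides and 3 GC boxes, 2 of which overlap by 1 base, and the second held 3 and none.

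Sema4d had 861-residue transcripts from a first start at 2.84 ± 0.566 FPKM in TG and 10.7 ± 2.34 in Sp5C, and one from a second start at 7.35 ± 2.1 and 8.80 ± 1.85, which did not pass by level (-0.26, adjusted p = 0.305). The second start held 50.3% of the gene's FPKM in TG and 20.4% in Sp5C (ratio test adjusted p = 0.000229), and the incomplete transcript is counted as a start of its own. In Sema4b the second start, 11600 bases downstream of the first, held 80.2% of the FPKM in TG and 64.5% in Sp5C (ratio test adjusted p = 0.0327). Both transcripts encode 823 residues. The first-start transcript did not pass by level (0.33, adjusted p = 0.175), and the second was 9.77 ± 1.38 FPKM in TG and 3.09 ± 0.849 in Sp5C. Nrp2 used its second start for 91.0% in TG (89.1% to 92.8%) and 88.1% in Sp5C (80.1% to 91.9%), so the tissues overlapped (ratio test adjusted p = 0.00338). Its first start was at 2.39 ± 0.363 FPKM in TG and 0.895 ± 0.174 in Sp5C, the latter under the pseudocount of 1. The call therefore need not mean a different division. The Nrp2 transcripts encode 901 to 931 residues. Sema3b used 1 start for 78.4% in TG, but in Sp5C its share ran from 11.3% to 96.3% at about 1 FPKM, so its make-up there is poorly determined.

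In Sema4a the second start, which comprises several annotated starts 2081 or more bases below the first, held 20.9% of the FPKM in TG and 63.4% in Sp5C (ratio test adjusted p = 0.0194). It was listed at 0.0121, 0.0199 and 0.00909 FPKM in STG, 3.12, 0.962 and 1.56 in CTG, 5.42, 6.14 and 7.36 in SSp5C and 6.04, 5.82 and 3.90 in CSp5C. The STG libraries were near 0 and the CTG libraries all above them, between STG and Sp5C. The neutrophil and bone marrow list was at 1.22, 0.44 and 1.45 in STG and 5.71, 1.16 and 4 in CTG (mean log2(FPKM + 1)), and its part was not tested. No test of usage was made between letters, and how fragments were divided among the gene's 10 listed transcripts was not tested. The whole gene was at 3.42, 2.91 and 4.05 FPKM in STG and 5.19, 3.94 and 3.92 in CTG, which overlap (0.26, adjusted p = 0.96).

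**Figure D3:**
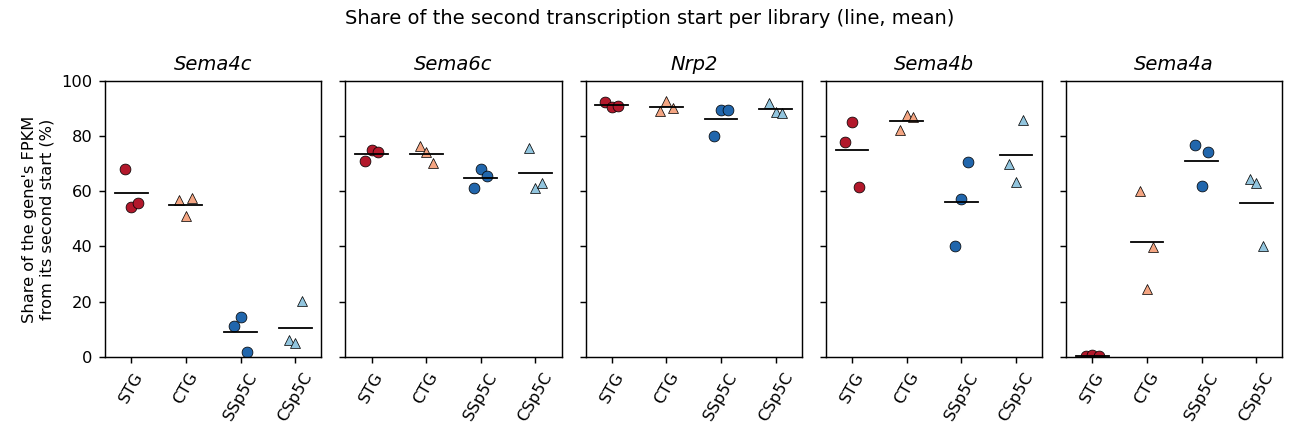
Share of a gene's FPKM that came from its second annotated start, per library and group, with the mean of 3 libraries as a line. For Sema4c all TG libraries lie between 50.9% and 68.1% and all Sp5C libraries between 1.58% and 20.1%; the shares of Sema6c, Nrp2 and Sema4b overlap between tissues, and those of Sema4a lie near 0 in STG.

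Between the letters in the ganglion, no member passed. Of 12906 genes tested in the 6 TG libraries, 1 passed (0.00775%), and 0 of the 30 members tested did, with Sema3a under the filter on low values. At an unadjusted p under 0.05, 7 members stood out, all lower in CTG, against 4.70% of all genes in either direction and 3.01% lower. A lower mean in CTG was found for 26 of the 30 members and for 52.0% of all genes, and all 11 plexins and neuropilins had one. Some lists read below leaned the same way, with 14 of 17 ephrin and Eph genes, 7 of 7 proteases, 5 of 5 MICAL genes and 11 of 16 netrin and slit genes. Others did so less, with 10 of 18 small GTPases and regulators, 7 of 14 kinases and effectors and 7 of 15 partner receptors. Collapsin response mediators and vascular growth factor genes each had 3 of 5. The median difference was -0.11 for the members and -0.01 for all genes. The libraries of CTG lay wholly below those of STG for 8 members (background 6.32%). With single libraries left out, added after seeing the data, 21 to 26 of the 30 had a lower mean in CTG. The fewest were 21 without CTG replicate 1 and 22 without STG replicate 1. The pituitary list was at 5.99 in STG replicate 1 and at 0.32 to 1.63 in the other TG libraries, and its part was not tested. The neutrophil and bone marrow list was at 5.71, 1.16 and 4 in CTG replicates 1 to 3 and at 1.22, 0.44 and 1.45 in STG, and its part in these values was not tested.

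Plxnb3, a receptor of Sema5a known from oligodendrocytes, had the smallest p of the family. It was at 12.9, 12 and 11.6 FPKM in STG, 10.1, 8.67 and 8.85 in CTG, 12.2, 11 and 12 in SSp5C and 9.87, 9.6 and 9.26 in CSp5C. Every CTG library was below every STG library, with a difference of -0.37 ± 0.076 (SE, unadjusted p = 0.00211, adjusted p = 0.912). Nrp2 (-0.17), Sema6d (-0.15), Plxnb1 (-0.29), Plxna2 (-0.19) and Sema3d (-0.24) also did not overlap between letters, and Sema4g (-0.27) did; each had an adjusted p of 0.96. Sema6d was at 27.2, 27.2 and 27.1 FPKM in STG and 24.0, 25.2 and 23.7 in CTG. Plxnb1 was at 13.2, 11.2 and 11 FPKM in STG and 9.92, 10.2 and 8.33 in CTG. These gaps are narrow beside the spread within groups for Plxnb1 and wider for Sema6d, whose STG libraries were nearly equal.

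In the brainstem nucleus, too, no member passed. Of 12690 genes tested 4 passed (0.0315%), and 0 of 31 members did. Means were lower in CSp5C for 18 of the 31 members (background 49.7%), the median difference was -0.04 against 0.00 for all genes, and 4 members lay wholly lower in CSp5C (background 6.20%). At an unadjusted p under 0.05 there were 4 members (background 5.02%): Plxnb3 (-0.27 ± 0.063, adjusted p = 0.904), Sema4c (-0.33 ± 0.088, adjusted p = 0.904), Sema6a (-0.27 ± 0.075, adjusted p = 0.904) and Sema3b (0.48 ± 0.18, adjusted p = 0.931). Sema6a was at 15.9, 16.0 and 17.9 FPKM in SSp5C and 14.7, 13.3 and 12.8 in CSp5C. With the most abundant transcript alone, its difference was -0.09 and that of Sema4c 0.01. Plxnb3, Sema4c and Sema6a did not overlap between letters and Sema3b did. The oligodendrocyte list moved with Plxnb3 and Sema6a in this tissue, at 8.01, 7.93 and 7.97 in SSp5C and 7.78, 7.73 and 7.43 in CSp5C on the log2(FPKM + 1) scale, with all 6 markers detected, and its part was not tested. In TG that list was at 4.85, 4.64 and 4.83 in STG and 5.19, 4.47 and 4.18 in CTG, where the letters overlapped. Beside Sema3b, a list of 5 fibroblast and meningeal genes was at 1.83, 2.98 and 2.02 in SSp5C and 2.93, 2.77 and 1.96 in CSp5C, and its part was not tested.

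**Figure D4:**
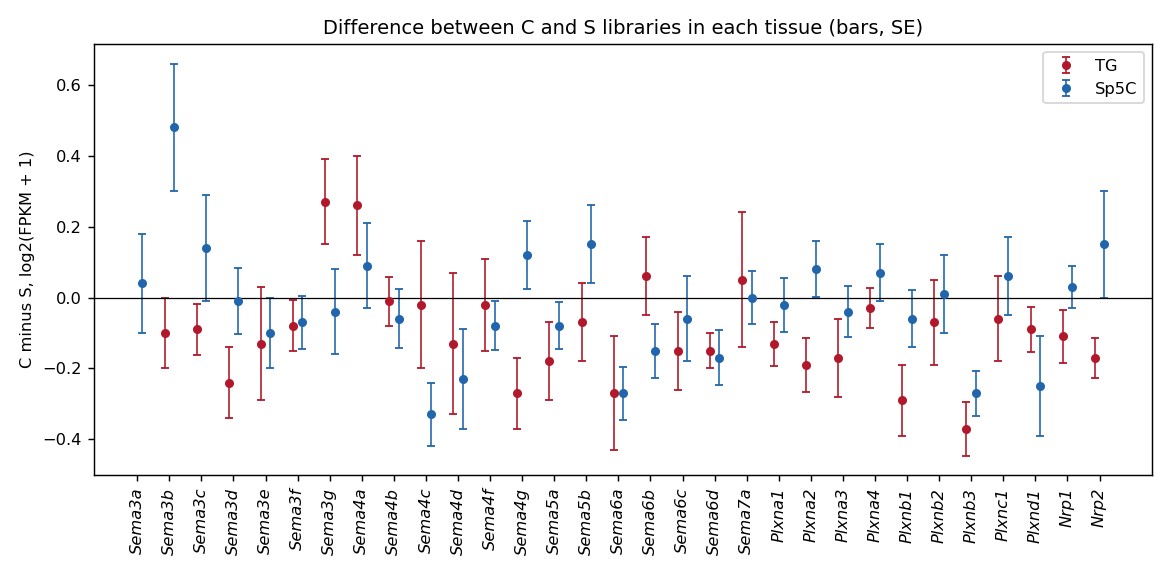
C minus S difference on the log2(FPKM + 1) scale for each member in TG and Sp5C, with its standard error; no member had an adjusted p under 0.05. In TG, 26 of 30 members lie below 0; Plxnb3 lies below 0 in both tissues, at -0.37 and -0.27.

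The effect of the letter was not shown to differ between tissues for any member. Over 13081 genes the difference of both effects had 0 calls (0%), with 708 genes at an unadjusted p under 0.05 (5.41%). The members with an unadjusted p under 0.05 were Sema4g (-0.40), Sema3b (-0.58) and Plxna2 (-0.27), with adjusted p from 0.882 to 0.887. For Plxnb3 the difference of effects was -0.10 ± 0.096. Averaged over both tissues, a contrast added after seeing the data, Plxnb3 was lower in C by 0.32 on the log2 scale (difference -0.32 ± 0.048, unadjusted p = 3.98e-05), with every C library below every S library of its tissue. It ranked 5th of 13081 genes but did not pass (adjusted p = 0.104), where 2 genes did (0.0153%). Without CTG replicate 1 its adjusted p was 0.0352, and without other single libraries it ran from 0.145 to 0.297. The averaged contrast counts the libraries of both tissues as independent, and whether they share animals is not given.

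**Figure D5:**
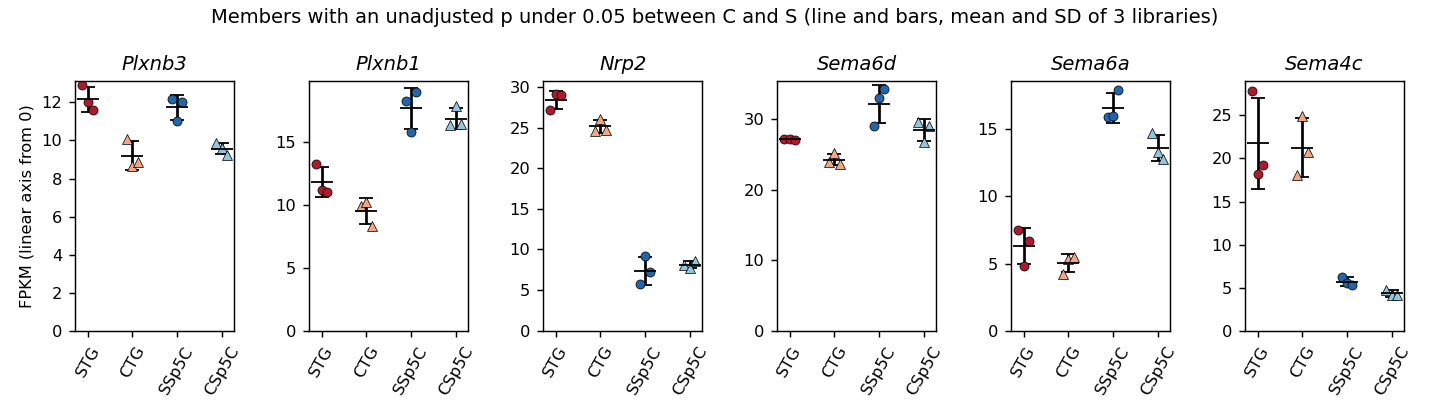
FPKM per library of 6 members with an unadjusted p under 0.05 between letters in at least 1 tissue, on linear axes from 0, with mean and SD of 3 libraries. Plxnb3 lies at 11 to 12.9 FPKM in both S groups and at 8.67 to 10.1 in both C groups, and has no tissue difference, whereas Nrp2, Plxnb1, Sema6a and Sema4c differ more between tissues than between letters.

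Other genes of the pathway were read from lists against the same background of 36.2% higher and 35.0% lower in TG. Collapsin response mediators, cytosolic proteins that carry the Sema3a signal to the cytoskeleton, had 3 of 5 higher in TG and none lower, among them Dpysl3 (120 ± 7.28 against 27.6 ± 1.65 FPKM, difference 2.08) and Dpysl5 (1.32). Of 5 MICAL genes, whose enzymes oxidise actin downstream of plexins, and MICAL-like genes, which lack the enzyme domain, 3 were higher and 1 lower, with the enzyme Mical1 at 2.57 and the MICAL-like Micall1 at -1.21. Of 19 small GTPases and their regulators tested, 11 were higher and 6 lower. The plexin-binding GTPases Rnd2 (13.5 ± 1.35 against 108 ± 9.76 FPKM) and Rnd1 (0.828 ± 0.264 against 11.6 ± 0.734) were both lower in TG, by differences of -2.90 and -2.79. Of 14 kinases and cytoskeletal effectors, 6 were higher and 5 lower, with Pak1 at -1.76, Cdk5r1 at -0.87 and Pik3r1 at 0.75.

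Partner receptors on the cell surface were mixed, with 6 of 14 higher and 4 lower. Itgb1, the integrin chain that binds Sema7a, was higher (91.2 ± 3.42 against 28.8 ± 2.5 FPKM, difference 1.63), as were L1cam (1.48), a partner of Nrp1, and Erbb2 (2.23), a partner of plexins B. None of 6 genes for vascular endothelial growth factors and their receptors, the other ligands of neuropilins, was higher in TG and 5 were lower, including Vegfb (-0.95), Flt1 (-0.99) and Kdr (-0.55). Proteases that cut semaphorins or their receptors had 5 of 7 higher and 1 lower, with Adam10 at 1.57, Furin at 0.73 and Pcsk5 at 0.77. Of other guidance families, netrin, slit and related genes had 6 higher and 9 lower of 18, and ephrins and their receptors had 9 and 10 of 19. Dcc (-2.01), Unc5b (-2.80), Ephb1 (-2.25) and Efna3 (-2.46) were among those lower in TG. Every named gene of these lists had an adjusted p of 0.000266 or less, and between letters no gene of these lists passed in either tissue.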

How the data were processed

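The authors deposited FPKM per transcript and library for protein-coding RNA. Per the labels' protocols, 3 µg of Trizol-extracted RNA per sample was depleted of ribosomal RNA and made into directional libraries. The submitters' processing notes name HISAT2, StringTie 1.3.1 and Cuffdiff 2.1.1, with the build and annotation not given in the sources used here. FPKM were summed per gene, and log2 values were computed here from the deposited FPKM with a pseudocount of 1, which understates the change of low genes. An exact 0 may be a failed estimate.

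Genes, transcripts and starts with a mean FPKM of at least 1 over the libraries compared were tested, two-sided, with limma 3.58.1 in R 4.3.3 (mean-dependent prior, robust moderation) and Benjamini-Hochberg adjustment over all features, at a threshold of 0.05. TG against Sp5C and the difference of effects used all 12 libraries, and C against S the 6 of its tissue. Usage was tested with limma's diffSplice. On simulated data it called transcripts of genes whose make-up did not differ too often. A test on ratios, given beside it, did so less often but still above the threshold. In that simulation, genes of unchanged make-up also had equal levels in both tissues. It therefore cannot show how either test behaves where levels differ, as they do for many genes here. Of the deposited transcripts, 56929 matched GENCODE M21 by ID. Promoter windows are from RefSeq.

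The members and lists were chosen with earlier results of these data known. Named were the 8 highest and 8 lowest tissue differences among members that passed without overlap, members with an unadjusted p under 0.05 between letters, the 5 highest in each tissue, up to 6 members of different usage, and up to 3 members per pathway list. Sema3f, Nrp1, Sema4f, Sema3c, Sema5b and plexins A and B are also given, so that each member is accounted for. The alternatives were other pseudocounts, filters, scalings, moderation, single letters, a replicate block, the highest transcript only and libraries left out. The tables of long non-coding RNA were not used here. Figures were drawn with matplotlib.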

Additional observations from a re-analysis of the deposited data

Results flagged for a closer look

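In each tissue, each member's 6 libraries were checked for a value that stands apart from the other 5 (Dixon's ratio above its 95% critical value), 62 sets in all. A library stood apart in 7 sets, and chance gives about 1 in 20. In the ganglion, CTG replicate 3 had the lowest Sema5a (24.0 FPKM) and Plxnd1 (23.0 FPKM) and the highest Sema7a (45.3 FPKM). CTG replicate 1 had the lowest Sema3e (3.61 FPKM). In the brainstem nucleus, CSp5C replicate 3 had the lowest Sema4d (31.9 FPKM) and the highest Sema3c (8.09 FPKM), and SSp5C replicate 1 had the lowest Sema4a (7.06 FPKM). CTG replicates 1 and 3 were also the libraries with the highest neutrophil and bone marrow level (5.71 and 4), and CSp5C replicate 3 had the lowest oligodendrocyte level of its tissue (7.43), both as means of log2(FPKM + 1). Their part in these values was not tested.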

How the results depend on the processing

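Across the alternatives run, 14 to 16 members were higher and 8 to 12 lower in TG, and 0 members passed in CTG against STG, CSp5C against SSp5C or the difference of effects. Of 204 recomputed counts, 197 stayed within 1.5 times the main one. The 197 include all settings of these last 3 comparisons, where the main and recomputed counts were both 0. They also include 8 members lower in TG against 12 in the main fit. Averaged over both tissues, 0 to 1 members passed with single libraries left out, the 1 being Plxnb3 without CTG replicate 1. A mean FPKM of at least 5 gave 15 member transcripts higher, 8 lower, 6 of different usage and 3 members with a start of different usage, where fewer features were tested. Without a filter, 42 transcripts differed in usage, and a pseudocount of 0.1 left 5 members with a start of different usage; the cause was not tested. With the highest transcript only, Sema4c in CSp5C against SSp5C reversed to 0.01 and the difference of effects for Sema3b to 0.34; neither had passed. Same-numbered libraries did not deviate together in all pairs of groups (r from -0.20 to 0.38), so the numbers were not treated as pairs. These pairs of groups include those between letters. Between tissues, each CTG library correlated best with the CSp5C library of its number (r = 0.33, 0.23 and 0.38). No STG library did so with SSp5C (r = -0.08, -0.20 and -0.02). Whether both tissues came from the same animals is not given. The replicate block gave S and C libraries of one number the same level, so it does not model links within a letter. With the replicate block, 16 members were higher and 12 lower in TG, 0 passed between letters, 27 and 15 transcripts were higher and lower, 20 differed in usage and 9 members had a start of different usage. The unknown depth and 3 libraries per group limit what the comparisons between letters could detect.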
